A study of Mus musculus with 10 samples.

Results

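Mitochondrial carriers and the proteins that bring other proteins into mitochondria were compared between the hippocampus of more and less exploratory mice of 1 inbred strain. Members were all probe sets to which the array annotation gave exactly 1 gene symbol, where that symbol began with Slc25a, Timm or Tomm. This took 143 of the 45037 non-control probe sets, for 68 of 18193 named genes. The Slc25a carriers held 93 of the probe sets, the Timm genes 28 and the Tomm genes 22. All mice were female Balb c/J animals from Jackson with a shared day of birth. The labels name no allele or treatment, and their age at dissection is not given in the labels. Scores from repeated open-field tests under several lighting conditions had been averaged and the mice ranked. The High Exploration group was 5 mice from the top of that ranking and the Low Exploration group 5 mice from the bottom. Both groups had therefore been through the same tests, and mice in the middle of the ranking are not part of the comparison. Each mouse gave 1 array of whole hippocampus, so the number of arrays limits the precision. The p-values measure the spread between these mice.

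Nearly all mitochondrial proteins are made in the cytosol and must be imported. The TOM complex of the outer membrane receives them. The TIM23 complex then passes them to the matrix, while small TIM chaperones and the TIM22 complex insert multispanning proteins, the carriers themselves among them, into the inner membrane. The Slc25 carriers exchange adenine nucleotides, phosphate, amino acids, carboxylates and cofactors across the inner membrane, and in neurons they link ATP made in mitochondria to its use at synapses.

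The promoters of Tomm70a, Tomm20 and Slc25a25 are shown because probe sets of these genes separated the groups and their start regions held a motif that was searched. Slc25a12, Slc25a14 and Slc25a45 also had a probe set that separated the groups, but none of the motifs marked below lay before their starts. Each is the RefSeq sequence of build GRCm38.p6 over the 250 bases before a start site, 5′ to 3′ on the gene's strand. Capitals mark the motif: CCGGAAGT, a core that ETS family factors such as GABP bind, in Tomm70a; a form of the palindromic NRF1 motif in Tomm20; and TGACGTCA, the full cyclic AMP response element, in Slc25a25. The regions are chr16:57121464-57121713 on the plus strand, chr8:126945922-126946171 on the minus strand and chr2:32424067-32424316 on the minus strand.
Tomm70a: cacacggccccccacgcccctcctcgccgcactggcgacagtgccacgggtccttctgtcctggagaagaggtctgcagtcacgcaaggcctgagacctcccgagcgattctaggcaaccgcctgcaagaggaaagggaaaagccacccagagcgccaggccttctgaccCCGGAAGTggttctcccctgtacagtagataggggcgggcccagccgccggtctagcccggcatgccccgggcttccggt
Tomm20: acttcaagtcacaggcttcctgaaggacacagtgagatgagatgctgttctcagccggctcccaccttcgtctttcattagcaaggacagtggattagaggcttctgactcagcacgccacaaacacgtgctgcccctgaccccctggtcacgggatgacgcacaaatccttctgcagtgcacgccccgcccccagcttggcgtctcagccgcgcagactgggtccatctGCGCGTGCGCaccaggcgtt
Slc25a25: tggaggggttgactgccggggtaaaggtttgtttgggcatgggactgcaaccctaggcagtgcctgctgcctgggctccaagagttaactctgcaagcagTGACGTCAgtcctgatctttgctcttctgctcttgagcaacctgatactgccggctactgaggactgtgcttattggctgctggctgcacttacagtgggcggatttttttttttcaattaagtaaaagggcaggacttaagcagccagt
The capitals begin 80 bases before the start of Tomm70a, 20 before that of Tomm20 and 150 before that of Slc25a25, at 1 of the 3 starts listed for the last gene. RefSeq windows from 250 bases before to 50 after a start were found for 55 of the 68 genes, 66 windows in all. Both strands were searched. CCGGAAGT was present in 8 of the 66 windows (12.1%) and in 3.89% of all 32851 windows. The 8 genes were Slc25a20, Timm10, Timm10b, Timm23, Timm29, Timm8a2, Timmdc1 and Tomm70a. The NRF1 motif was present in 4 windows (6.06%), those of Slc25a3, Slc25a31, Timm8b and Tomm20, and in 4.6% of all. This form has 1 free base, and the exact palindrome was present in 0 of the 66 windows and in 0.971% of all. TGACGTCA was present in 2 (3.03%), those of Slc25a25 and Slc25a36, and in 1.79% of all. TATAAA was present in 2 of the 66 windows (3.03%) and in 13.6% of all. The median GC content was 59.8% in the windows of the carriers and import genes and 52.7% in all. Genes that share a motif had differences of both signs between the groups (Tomm70a and Timmdc1, or Slc25a36 and Slc25a25). Such a match describes letters, and binding was not measured.

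The signals are the deposited MAS 5.0 values, an Affymetrix measure of brightness that is linear and scaled to 1 level on every array. They are given as log2. A difference is High minus Low Exploration, with its standard error (SE), and n = 5 mice in each group throughout. Levels of different probe sets are not comparable with each other. limma was fitted to 22518 probe sets, those in the brighter part of the table by mean log2 signal, and its p-values were adjusted by Benjamini-Hochberg over all of them. Of the 143 probe sets, 97 (54 genes) were tested and 46, with means from 3.89 to 7.41, were too dim. No tested probe set was left for 14 genes, the outer membrane channel Tomm40 and the aspartate/glutamate carrier Slc25a13 among them.

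The arrays of the groups differed beyond these genes. Median signal was 142.5 to 204.9 in High and 226.8 to 272.3 in Low Exploration. Hybridisation controls, spiked in at a set amount, read 13.06 to 13.85 and 13.74 to 14.54, and poly-A controls 11.84 to 13.06 and 13.58 to 14.67. The 3′ over 5′ difference of Gapdh was 3.96 to 5.21 and 3.49 to 4.06, and that of actin 4.33 to 5.90 and 4.28 to 5.98. Over all 22518 probe sets the median difference was -0.31 as deposited. It was 0.23 after centring each array on its median, -0.01 after quantile normalisation and 0.32 with hybridisation controls set equal. Low signals therefore tended to read lower in High Exploration. Below, the whole set and the families are set beside probe sets of like brightness, while most single differences are plain High minus Low values. A fit with the level of the hybridisation controls as a covariate is given beside several results that it moved. Those controls read lower in High Exploration with little overlap, so that fit can hardly separate their level from the group. Its values are another setting and not corrected differences. The mean log2 level of 5 neuronal markers (Snap25, Syt1, Rbfox3, Camk2a and Eno2) was 11.50 to 12.00 in High and 11.13 to 11.48 in Low Exploration. The range of 4 endothelial markers was 6.53 to 7.89 and 7.77 to 8.85, and that of 3 red blood cell markers 5.36 to 6.87 and 7.21 to 7.83. The 5 astrocyte markers read 12.16 to 12.95 and 11.63 to 12.57, and the 4 oligodendrocyte markers 10.82 to 11.96 and 10.48 to 11.40. The 5 microglial markers read 8.60 to 9.95 and 9.23 to 9.81, and the 5 choroid plexus markers 8.49 to 10.36 and 9.74 to 10.57. The 5 hippocampal neuron markers read 8.48 to 9.70 and 7.91 to 9.02, and 5 skeletal muscle genes foreign to brain 4.52 to 6.86 and 6.14 to 7.95. No marker passed the test, and the part of any of these shifts in the results below was not tested. In whole tissue, fewer cells of a type and less RNA per cell cannot be told apart.

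No carrier or import gene passed limma's adjusted threshold of 0.05, and the smallest adjusted p was 0.0618. Over all tested probe sets 3 passed (0.0133%). At an unadjusted p under 0.05, 10 of the 97 probe sets were higher in High Exploration (10.3%, against 9.67% of all) and 6 were lower (6.19%, against 20.5%). The groups did not overlap for 3 probe sets that were higher (3.09%, against 2.14%) and for 3 that were lower (3.09%, against 6.69%). As deposited, 54 were higher and 43 lower, with a median difference of 0.07 and a range from -2.16 to 2.27. As deposited, the share that was higher thus lay near the background, and the share that was lower lay below it. With median centring 35.1% of the 97 were higher at that p, against 23% of all, and with equal hybridisation controls 36.1%, against 23.8%.

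**Figure D1:**
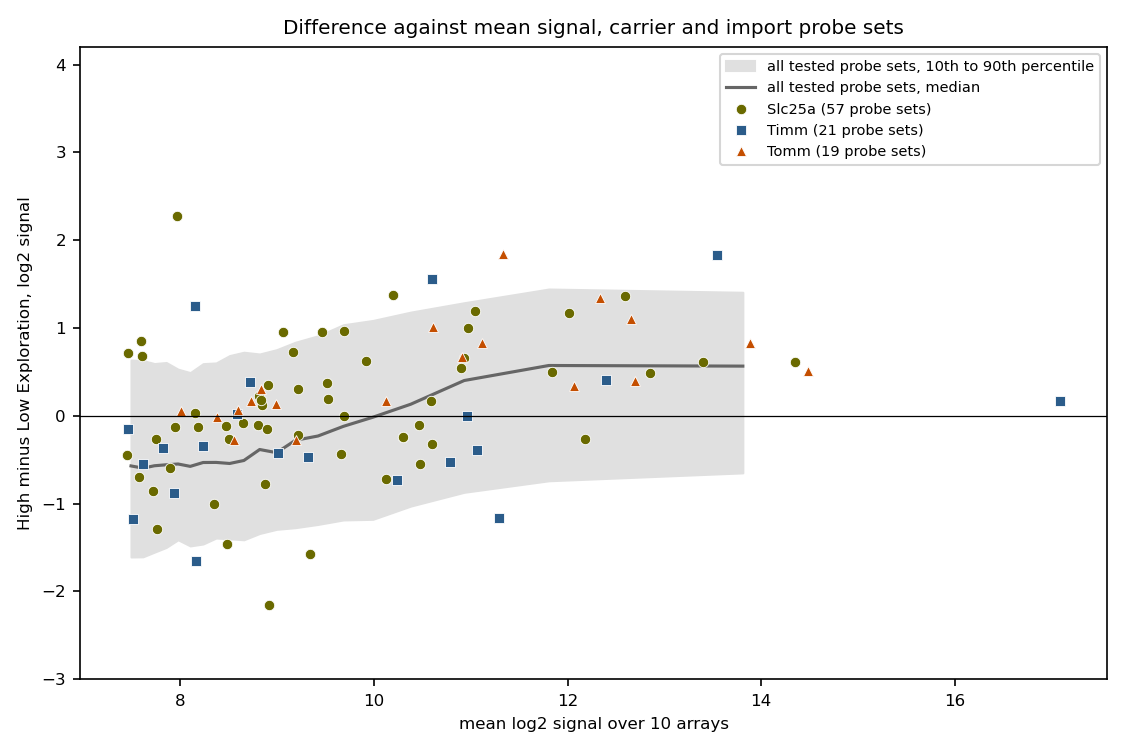
High minus Low Exploration difference in log2 signal (vertical axis) against mean log2 signal over 10 arrays (horizontal axis) for the 97 tested probe sets of carriers and import genes, marked by family. The line is the median of all 22518 tested probe sets and the grey band their 10th to 90th percentile: the line goes from below 0 at low signal to above 0 at high signal.

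Differences moved with brightness. With all tested probe sets divided into 4 equal classes of mean signal, the median difference in the lowest class was -0.37 for 17 member probe sets and -0.57 for all. In the second class it was -0.10 for 16 and -0.54 for all, and in the third 0.12 for 24 and -0.29 for all. In the brightest class, from 9.82 to 18.11, it was 0.50 for 40 and 0.35 for all. In that class 72.5% of the 40 were higher in High Exploration, against 62.4% of all, and 8 of the 40 were higher at an unadjusted p under 0.05, where 24.2% of all were. Probe sets whose groups did not overlap were also placed within their own class. The difference exceeded that of 91.2% of the class for Tomm70a 1426675_at, 71.4% for Tomm20 1423081_a_at and 56.2% for Slc25a14 1417154_at. It exceeded that of 25.1% for Slc25a12 1444489_at, 3.55% for Slc25a25 1424735_at and 0.409% for Slc25a45 1426883_at.

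The families differed in where they lay. Of 19 tested Tomm probe sets, 16 were higher in High Exploration, with a median difference of 0.34. At an unadjusted p under 0.05, 5 of the 19 were higher (26.3%, against 9.67% of all tested probe sets). All 5 were among the 11 Tomm probe sets of the brightest class, where 24.2% of all were higher at that p. The 57 Slc25a probe sets divided into 30 higher and 27 lower, with a median of 0.03. The 21 Timm probe sets divided into 8 higher and 13 lower, with a median of -0.37. Of all tested probe sets 38.1% were higher, with a median of -0.31, so the Timm values lay near the background. The Tomm median was 0.88 with median centring, 0.48 with quantiles and 0.97 with equal hybridisation controls. Median centring and equal hybridisation controls move every difference up by the same amount, so only quantiles could have turned its sign. Under these scalings the median of all tested probe sets also moved, to 0.23, -0.01 and 0.32. The Timm median was 0.16, -0.08 and 0.25 and so depended on the scaling. The difference between families was not tested.

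**Figure D2:**
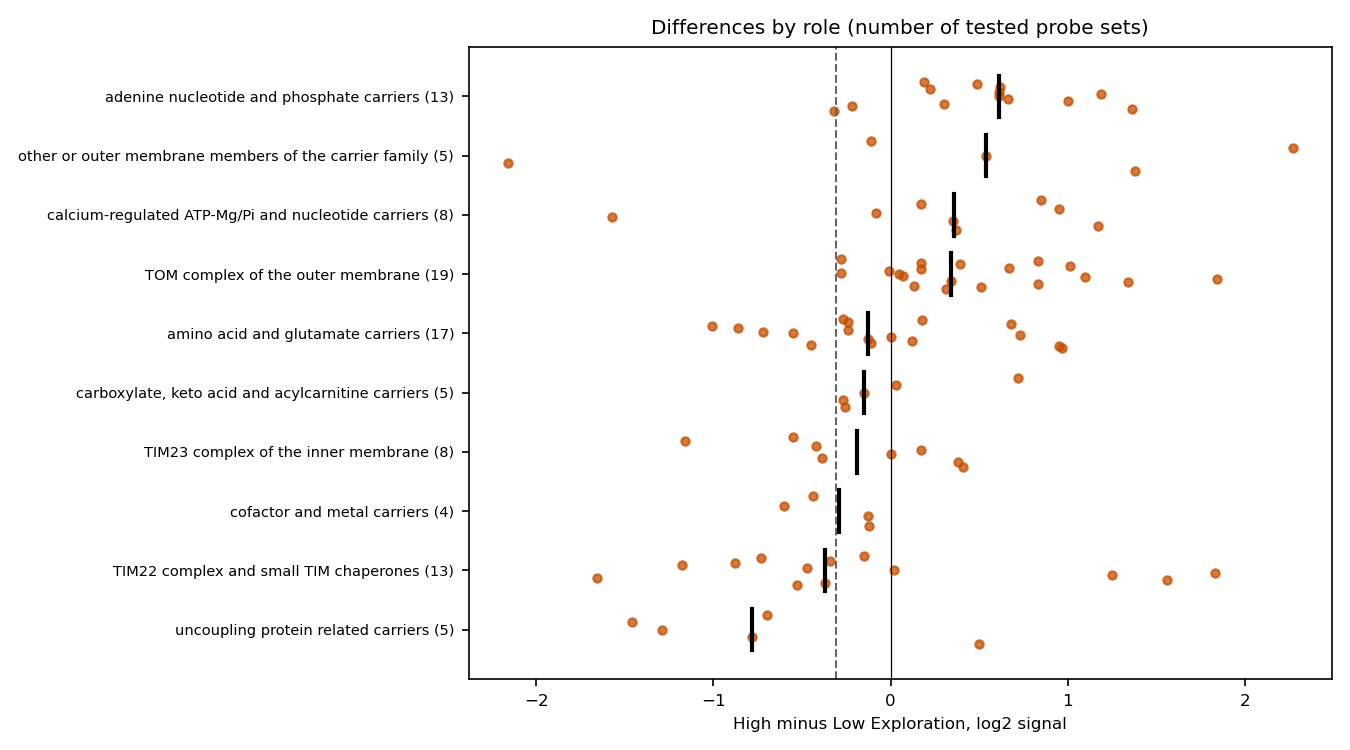
High minus Low Exploration difference in log2 signal (horizontal axis) of every tested probe set of the carriers and import genes, 1 row for each role with its number of probe sets. Black bars are the medians, from 0.61 for adenine nucleotide and phosphate carriers to -0.78 for uncoupling protein related carriers. The dashed line is the median of all tested probe sets of any brightness, -0.31, and is not matched to the signal of a role.

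The smallest p-value of the tested set belonged to an outer membrane receptor. Tomm70a encodes the receptor that docks Hsp70 and Hsp90 carrying carrier precursors. Its probe set 1426675_at read 13.25, 13.54, 12.62, 12.87 and 12.71 in High and 11.64, 12.00, 11.42, 11.95 and 11.28 in Low Exploration. Every High array lay above every Low array. With SDs of 0.39 and 0.32 (n = 5), the means differed by 1.34 (SE 0.33, 2.54-fold, 95% interval 0.64 to 2.04, limma adjusted p = 0.0618). Its other tested probe sets differed by 0.34, 0.31 and -0.01, and a dim one by 0.41. With the hybridisation covariate 1426675_at differed by 0.87 (adjusted p = 0.621).

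Tomm20 encodes the receptor for presequences, the N-terminal signals of matrix proteins. Its probe set 1423081_a_at read 11.64, 11.69, 11.94, 11.16 and 11.25 in High and 10.94, 10.93, 10.47, 10.61 and 10.57 in Low Exploration, again without overlap. The difference was 0.83 (SE 0.31, 1.78-fold, limma adjusted p = 0.103), and 0.43 with the hybridisation covariate. All 6 probe sets of Tomm20 had a positive difference, from 0.13 to 1.01. The highest of these, 1.01 (SE 0.40, adjusted p = 0.120), belonged to 1435187_at. The brightest, 1423079_a_at, differed by 0.51 (SE 0.31, adjusted p = 0.268), with 14.95, 14.94, 14.33, 14.66 and 14.80 against 14.07, 14.38, 13.83, 14.67 and 14.17.

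Tomm7 encodes a small subunit that regulates the assembly of the TOM complex. Its probe set 1428214_at read 12.11, 12.72, 13.48, 11.35 and 11.57 in High and 11.93, 10.26, 9.91, 9.98 and 9.94 in Low Exploration. A single Low array, replicate 1, reached into the High range. The difference was 1.84 (SE 0.51, 3.59-fold, 95% interval 0.75 to 2.93, limma adjusted p = 0.0661), and it was 2.22 (adjusted p = 0.0570) without that array. With the hybridisation covariate it was 0.64 (adjusted p = 0.801). The other Tomm7 probe sets differed by 1.10, 0.67 and 0.07. Tomm22, the central receptor, and Tomm34, a cytosolic co-chaperone, differed by 0.05 to 0.17. Both probe sets of Tomm40l, a relative of the import channel, differed by -0.28.

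**Figure D3:**
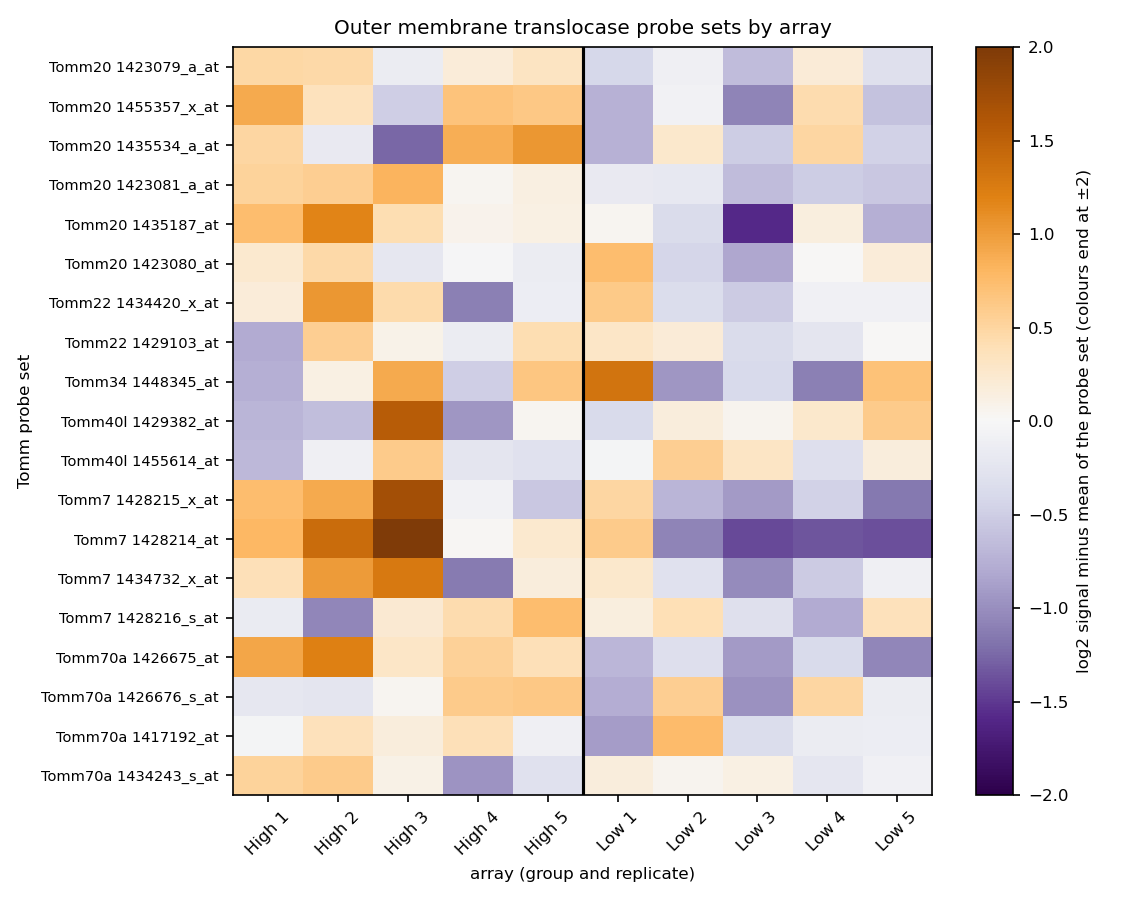
Log2 signal of the 19 tested Tomm probe sets (rows) on each of the 10 arrays (columns), as the difference from the mean of the probe set, from purple (lower) to orange (higher). The row of Tomm70a 1426675_at is higher on all 5 High arrays than on any Low array, and Low replicate 1 stands out among the Low arrays in the row of Tomm7 1428214_at.

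In the brightest class the Tomm genes held 11 probe sets of 4 genes. All 11 were higher in High Exploration as deposited, where 62.4% of all in that class were. Of the 11, 9 lay above the median of the class, and 5 had an unadjusted p under 0.05, against 24.2% of all. The 20 Slc25a probe sets there were higher in 13, with 12 above that median, and the 9 Timm probe sets in 5, with 3 above it. Probe sets of 1 gene share their transcript, so the 11 are not independent. Centred on the mean of all arrays, the average Tomm level was 0.19, 0.42, 0.46, -0.07 and 0.21 in High and -0.01, -0.10, -0.63, -0.22 and -0.25 in Low Exploration. High replicate 4 lay within the Low range, and the other 4 High arrays lay above it.

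The inner membrane translocases had values on both sides of 0. TIM23 probe sets divided into 4 higher and 4 lower, none with an unadjusted p under 0.05. The median of their mean signals was 11.01, in the brightest class, where 62.4% of all probe sets were higher. Timm23, the channel, differed by 0.41 (SE 0.35, limma adjusted p = 0.431), a sign that turned with quantile normalisation (-0.08). Timm44, which tethers the import motor, gave the brightest probe set of the list, 1448801_a_at, at 17.31, 17.24, 15.90, 18.01 and 17.44 in High and 17.56, 17.86, 16.90, 17.73 and 14.99 in Low Exploration. Its difference was 0.17 (SE 0.56, adjusted p = 0.851), and it was -0.33 without Low replicate 5. Its other probe sets differed by 0.00 and 0.20. Timm50, the receptor of the complex, was lower by value, at -1.16 (SE 0.57, adjusted p = 0.184), and its dim probe sets differed by -0.30 and -0.25.

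Of 13 probe sets in the list of TIM22 and small TIM genes, in which Timmdc1 was placed by its name, 4 were higher and 9 lower as deposited. The median of their mean signals was 8.23, in the second class, where 26.6% of all probe sets were higher. Timm8b, a small chaperone of the intermembrane space, differed by 1.83 (SE 0.59, 3.56-fold, limma adjusted p = 0.0830), and by -0.12 with the hybridisation covariate. Its probe set 1431665_a_at read 14.81, 15.07, 15.14, 14.14 and 13.10 in High and 14.48, 12.54, 12.93, 12.07 and 11.07 in Low Exploration, and the groups overlapped. Timmdc1, an assembly factor of respiratory complex I that has a Timm name, differed by -1.66 (SE 0.64, adjusted p = 0.112). High replicate 1 was far below the rest for this probe set, and the difference without it was -0.98 (adjusted p = 0.178).

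The carriers of ATP, ADP and phosphate lay mostly above 0. Of 13 probe sets, 11 were higher in High Exploration and 1 had an unadjusted p under 0.05. Their median was 0.61 as deposited and 0.47 to 1.24 under the other scalings. The median of their mean signals was 10.93, which lies in the brightest class. There 62.4% of all probe sets were higher, 24.2% at that p, with a median of 0.35. All 8 probe sets of Slc25a5, an ATP/ADP carrier, had positive differences, from 0.22 to 1.36. The highest, 1423772_x_at, read 13.26, 14.61, 14.12, 12.29 and 12.07 in High and 13.50, 11.11, 11.94, 11.89 and 11.09 in Low Exploration (difference 1.36, SE 0.58, limma adjusted p = 0.140, and -0.38 with the hybridisation covariate). The groups overlapped on 1 Low array that lay within the High range, replicate 1. Probe sets with the _x suffix, as here, can also match other transcripts. Probe set 1436874_x_at differed by 1.19 (SE 0.64, adjusted p = 0.216). Slc25a4, the ATP/ADP carrier abundant in muscle and brain, differed by 0.61 (SE 0.43, 95% interval -0.33 to 1.55, adjusted p = 0.344), and its other probe sets by 0.30, 0.19 and -0.22. Slc25a3, the phosphate carrier, differed by -0.32 (SE 0.34, adjusted p = 0.537), a sign that turned with median centring (0.22) and equal hybridisation controls (0.31). Its other probe set, 1440302_at, was too dim to test and differed by -1.78, and by -1.24 to -1.15 under the other scalings.

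Slc25a25, a calcium-regulated carrier of ATP-Mg and phosphate, had the smallest p among the tested probe sets of carriers. Its probe set 1424735_at read 8.32, 8.83, 8.83, 8.00 and 8.80 in High and 9.24, 10.39, 11.28, 9.88 and 9.85 in Low Exploration. Every High array lay below every Low array, with a difference of -1.57 (SE 0.40, 2.98-fold lower, 95% interval -2.44 to -0.71, limma adjusted p = 0.0642). It remained between -1.34 and -0.95 under the other scalings. Its other probe sets were too dim to test and differed by -0.93 and -0.31. In the same list, Slc25a16, a carrier linked to coenzyme A, differed by 0.95 (SE 0.42, adjusted p = 0.151), and by 0.59 without High replicate 1. Slc25a36, a pyrimidine nucleotide carrier, differed by 1.17 (SE 0.60, adjusted p = 0.200) on its brightest probe set and by 0.37 and 0.17 on the others.

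Of 5 tested probe sets of uncoupling protein related carriers, 4 were lower by value and 1 higher, as deposited and under the 3 other scalings. The median of their mean signals was 8.48, in the second class, where 26.6% of all probe sets were higher as deposited. The 2 tested probe sets of Slc25a30 differed by -0.78 and -0.70, and its dim ones by 0.41, -0.93 and -2.42. Both tested probe sets of Slc25a27, also known as Ucp4 and found mainly in brain, were lower by value in High Exploration. Probe set 1431201_at read 6.57, 6.74, 7.55, 8.04 and 6.68 in High and 9.26, 7.64, 8.05, 8.31 and 8.75 in Low Exploration (difference -1.29, SE 0.42, limma adjusted p = 0.0831). Probe set 1440090_at differed by -1.46 (SE 0.54, adjusted p = 0.105; -0.57 with the hybridisation covariate), and the dim ones by -1.04 and -0.66. Slc25a14, a brain relative of the uncoupling proteins, lay on the other side of 0. Its probe set 1417154_at read 11.93, 11.99, 12.25, 12.19 and 12.10 in High and 11.57, 11.74, 11.55, 11.48 and 11.65 in Low Exploration. The groups did not overlap, but the difference was small (0.50, SE 0.28, 1.41-fold, 95% interval -0.11 to 1.10, adjusted p = 0.240), and it was 0.09 after quantile normalisation, 1.03 with median centring and 1.12 with equal hybridisation controls.

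**Figure D4:**
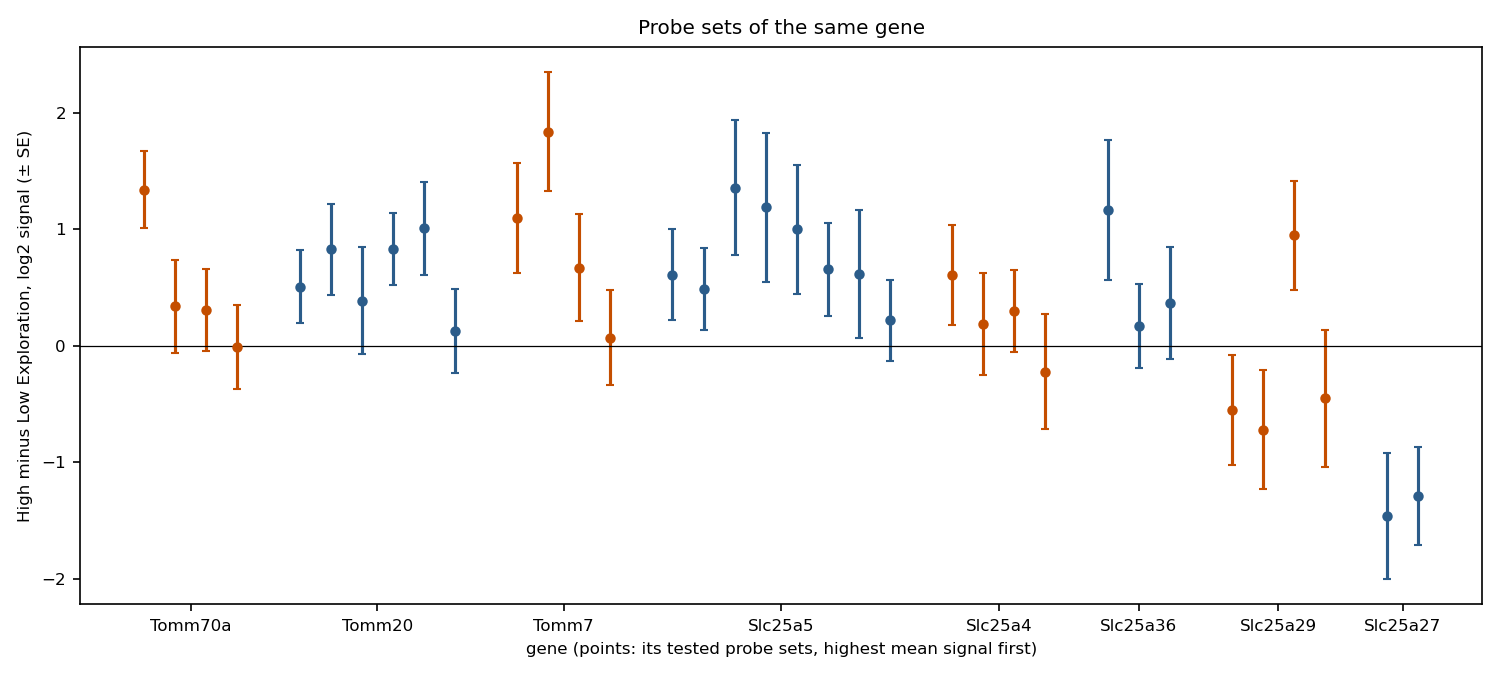
High minus Low Exploration difference in log2 signal with its SE (vertical axis) for the tested probe sets of 8 genes (horizontal axis), the brightest first within each gene. All points of Tomm20 and Slc25a5 lie above 0 and both of Slc25a27 below it, while those of Slc25a29 lie on both sides.

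In the list of amino acid and glutamate carriers 7 of 17 probe sets were higher and 10 lower. The median of their mean signals was 8.84, in the third class, where 38% of all probe sets were higher. The list also holds carriers that are not known to move amino acids. Slc25a12, the aspartate/glutamate carrier of the malate-aspartate shuttle, had 1 probe set, 1444489_at, that separated the groups, with 7.77, 6.87, 8.00, 8.46 and 8.11 in High and 8.52, 8.62, 8.83, 8.60 and 9.72 in Low Exploration. The gap between the groups was narrow, and the difference was -1.01 (SE 0.38, limma adjusted p = 0.110). It was -0.48 with median centring, -0.57 with quantiles, -0.39 with equal hybridisation controls and -0.05 with the covariate. Its brighter probe sets differed by 0.00 and 0.12. Slc25a29, a basic amino acid carrier, differed by 0.95 (SE 0.47, adjusted p = 0.190) on 1423979_a_at and by -0.55 (SE 0.47, adjusted p = 0.432) on the brightest, 1438187_at. Its other tested probe sets differed by -0.72 and -0.45, and a dim one by -0.42, so that 3 of the 4 tested were lower by value. Slc25a15, the ornithine carrier, differed by 0.97 (SE 0.50, limma adjusted p = 0.201), and by -0.92 on a dim probe set.

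Slc25a45, a carrier whose substrates are less well known, had the most negative difference of the tested set. Its probe set 1426883_at read 7.76, 5.57, 9.47, 7.58 and 8.81 in High and 10.13, 9.80, 10.32, 9.82 and 9.93 in Low Exploration. The Low arrays lay close together and the High arrays were spread below them. The difference was -2.16 (SE 0.59, 4.48-fold lower, 95% interval -3.43 to -0.89, limma adjusted p = 0.0660), -1.60 without High replicate 2 and -1.35 with the hybridisation covariate. Slc25a46 encodes an outer membrane protein that acts in mitochondrial fission. Its probe set 1418134_at read 11.18, 10.98, 10.71, 11.11 and 10.50 in High and 9.34, 10.66, 8.47, 9.89 and 9.20 in Low Exploration, where Low replicate 2 overlapped with High. The difference was 1.38 (SE 0.41, 2.60-fold, adjusted p = 0.0719) there and 0.54 (SE 0.46, adjusted p = 0.429) on 1448970_at. Slc25a53 gave the most positive tested difference, 2.27 (SE 0.81, adjusted p = 0.0983), on 1453040_at, and -0.11 on its brighter probe set.

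Carboxylate carriers and cofactor carriers gave no unadjusted p under 0.05 in 5 and 4 probe sets. Slc25a20, the acylcarnitine carrier, differed by -0.27 (SE 0.38, limma adjusted p = 0.646), with -0.15 on a dim probe set, and Slc25a34 by 0.72 (SE 0.63, adjusted p = 0.443). Slc25a32, a folate and FAD carrier, differed by -0.60 (SE 0.39, adjusted p = 0.304), with 1.44 and -0.06 on dim probe sets. Slc25a51, the mitochondrial NAD carrier, differed by -0.44 (SE 0.34, adjusted p = 0.377), with -0.21 on a dim one. All 4 cofactor probe sets were lower as deposited, but all 4 were higher with hybridisation controls set equal, so their direction rested on the scaling.

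**Figure D5:**
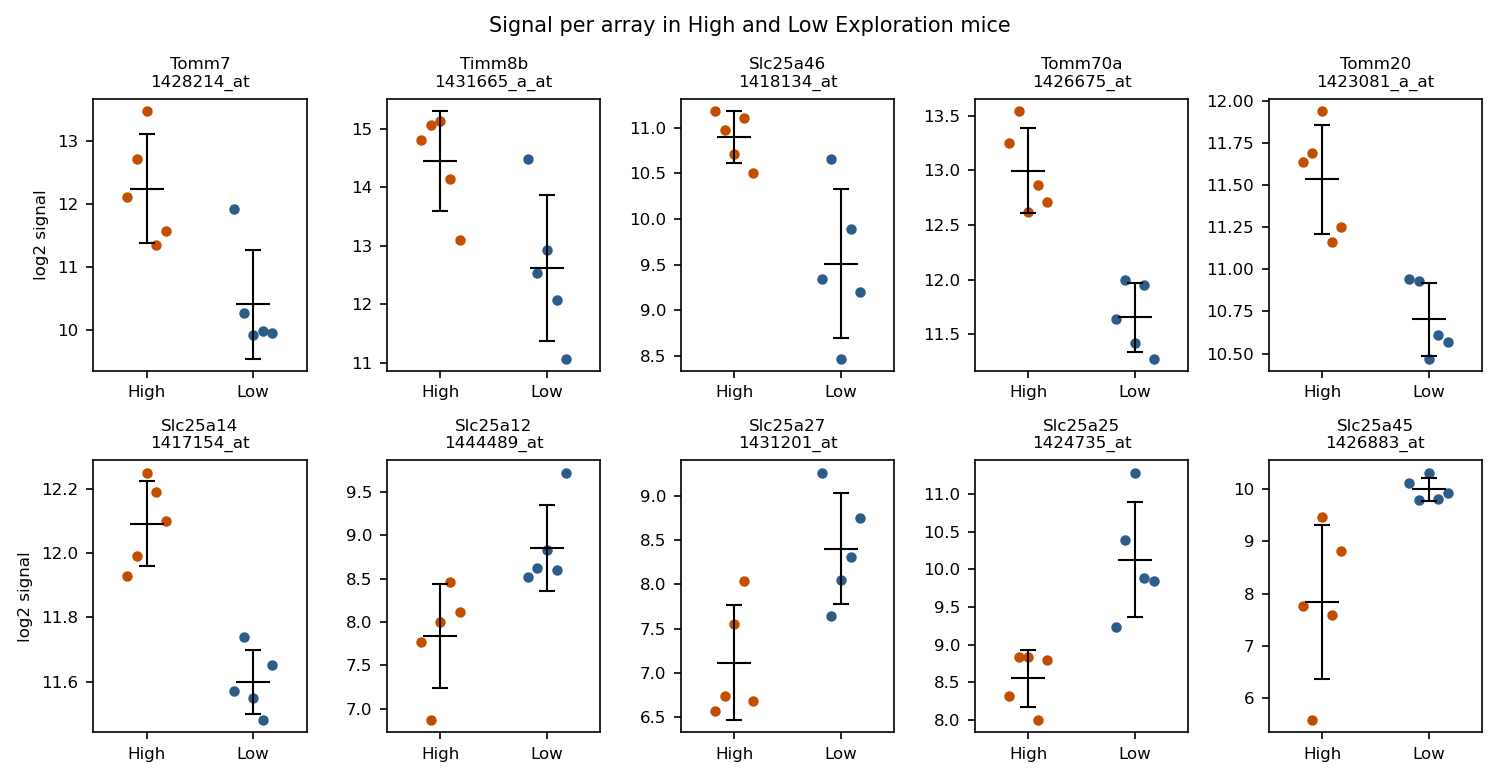
Log2 signal (vertical axis, not from 0 and different in each panel) of High and Low Exploration mice for the 10 tested probe sets whose groups did not overlap or whose unadjusted p was under 0.01. Points are arrays, long bars the means and short bars 1 SD: the groups do not overlap for Tomm70a, Tomm20, Slc25a14, Slc25a25, Slc25a45 and Slc25a12, and do for the other 4.

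Below the signal filter a few probe sets had wide differences. Slc25a23, another calcium-regulated ATP-Mg carrier, read 8.40, 8.45, 9.71, 7.85 and 7.61 in High and 8.34, 5.74, 5.11, 4.68 and 4.92 in Low Exploration on 1419045_at. Low replicate 1 lay among the High arrays, and the difference was 2.64 (SE 0.69, adjusted p = 0.122 in limma without the filter). Slc25a51 1427425_at read 4.47, 4.99, 4.46, 5.56 and 5.94 in High and 8.20, 5.87, 7.38, 6.83 and 8.49 in Low Exploration, a difference of -2.27 (SE 0.55, adjusted p = 0.119). No High array reached the Low median, and the groups overlapped at Low replicate 2. Over all 143 probe sets without the filter, the median difference was -0.11, and the median of all 45037 was -0.47.

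Partners outside these families were read from lists of import and transport genes, with 1 probe set for each gene. Of 19 tested genes of the import motor, sorting and processing, 12 were higher and 7 lower, with a median of 0.30. At an unadjusted p under 0.05, 3 were higher (15.8%, against 9.67% of all) and 2 lower (10.5%, against 20.5%). The brightest probe set of each gene was taken, and the median of their mean signals was 10.21. In the brightest class the median difference of all probe sets was 0.35. Mtx3, a metaxin of the outer membrane sorting machinery, differed by 1.80 (SE 0.57, limma adjusted p = 0.0803), and Dnajc15, a cochaperone of the motor, by 0.87 (SE 0.35, adjusted p = 0.124). Of 9 tested genes of other mitochondrial transport, 5 were higher and 4 lower and none had an unadjusted p under 0.05. Vdac3, an outer membrane pore, differed by 1.09 (SE 0.56, adjusted p = 0.201), and Mpc1, a subunit of the pyruvate carrier, by 0.79 (SE 0.43, adjusted p = 0.220).

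Of 36 genes with several probe sets, 13 had differences of both signs. Across the 97 tested probe sets, 49 were higher under all 4 scalings, 14 were lower under all 4, and 34 had a direction that depended on the scaling. Median centring and equal hybridisation controls each moved every difference up by the same amount. A difference above 0 as deposited could therefore turn only with quantiles, so the 49 and the 14 did not meet equal conditions. The same counts over all probe sets were not made. Slc25a25, Slc25a45 and Tomm70a 1426675_at were among those that kept their direction.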

How the data were processed

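The labels describe whole hippocampus of 10 mice, RNA from Qiagen RNA/DNA columns and biotin label on an Affymetrix mouse 430 array. The labels give the standard protocol and the methods a double round of amplification, which is not settled here. The series' design text describes another experiment, so groups follow the sample titles. Replicate numbers are in accession order and pair no mice. The authors deposited MAS 5.0 signal intensity values, made with Affymetrix Expression Console. The mean of each array, with 2% trimmed at both ends, was 500. Since each array is scaled to 1 level, a rise in bright transcripts lowers the reading of others.

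From the 45101 probe sets, 64 controls were removed. Annotation gave 1 symbol to 34958, several to 932 and none to 9211, and 4 probe sets with several symbols that matched the names were left out. Gene symbols of all 68 genes matched the RefSeq table. Differences were tested on log2 intensity with limma 3.58.1 in R 4.3.3 (lmFit and eBayes, 2-sided, 22518 probe sets, Benjamini-Hochberg, threshold 0.05), a procedure tested on simulated data. Named were probe sets whose groups did not overlap, the 2 smallest p and the brightest of each role, every probe set of a gene so named, and the 2 smallest p of each pathway list. Slc25a53, Slc25a15, Slc25a3, Slc25a23, Tomm22, Tomm34, Tomm40l and Slc25a30 fell outside that rule and were named after their values were seen. The members and lists were chosen with earlier results of these data known. Alternatives were no filter, centring on medians, quantile normalisation, equal hybridisation controls, their level as a covariate, a pseudocount of 23.0 (the 10th percentile of signals), array weights, and leaving out each array.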

Additional observations from a re-analysis of the deposited data

Results flagged for a closer look

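In 4 of the 56 groups of 5 arrays checked, 1 array stood apart from the others by Dixon's criterion, a gap to the nearest array over the range of the group above the 95% critical value. Chance gives about 1 in 20 groups. Slc25a12 1444489_at read 9.72 in Low Exploration replicate 5, where the next array read 8.83 (ratio 0.740). Slc25a4 1434897_a_at read 15.28 in Low Exploration replicate 4, where the next read 13.93 (0.780). Timmdc1 1420329_at read 4.62 in High Exploration replicate 1, where the next read 7.62 (0.714). Tomm7 1428214_at read 11.93 in Low Exploration replicate 1, where the next read 10.26 (0.826).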

How the results depend on the processing

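With 5 arrays per group and no passing carrier or import gene, the values are limited by spread and scaling. Calls over all probe sets (3 as reported) were 32 without the filter, 906 with median centring, 0 with equal hybridisation controls, 0 with their level as a covariate, 341 with the pseudocount and 2186 with array weights. They ranged from 0 to 1217 when 1 array was left out: 1217 without High replicate 5, 16 without High replicate 3, 14 without Low replicate 1, 1 without Low replicate 4, and 0 without Low replicate 3 or Low replicate 5. Of these genes' probe sets, 4 passed with median centring (4.12%, against 4.02% of all; Slc25a46 1418134_at 1.92, Tomm20 1423081_a_at 1.37, Tomm7 1428214_at 2.38 and Tomm70a 1426675_at 1.88), and 5 with array weights (5.15%, against 9.71%; Slc25a25, Slc25a45, Timm8b, Tomm7 and Tomm70a). Leaving out 1 array gave 0 to 3, the 3 being Slc25a45, Tomm7 and Tomm70a without High replicate 5 (3.16%, against 5.40%). The 10 probe sets higher at an unadjusted p under 0.05 became 34 with median centring (35.1%, against 23% of all), 35 with equal hybridisation controls (36.1%, against 23.8%), 1 with the covariate (1.03%, against 2.44%), 16 with array weights (16.5%, against 11.8%) and 6 to 14 when 1 array was left out. The 6 lower ones became 13 without the filter (9.09%, against 16.8%), 2 with median centring (2.06%, against 5.74%), 3 with quantiles (3.12%, against 10.8%), 1 with equal hybridisation controls (1.03%, against 3.61%) and 3 with the covariate (3.09%, against 5.7%), so these counts moved with those of all probe sets. The median difference of 0.07 became -0.11 without the filter, 0.61, 0.26 and 0.70 under median centring, quantiles and equal hybridisation controls, and 0.02 to 0.15 when 1 array was left out. Signs turned for Slc25a3 (0.22 with median centring, 0.31 with equal hybridisation controls), Slc25a20 (0.27 with median centring, 0.36 with equal hybridisation controls, 0.36 with the covariate), Slc25a51 (0.10 and 0.19 under the same scalings), Slc25a32 (0.03 with equal hybridisation controls), Slc25a29 1438187_at (0.08 with equal hybridisation controls, 0.28 with the covariate) and Timm23 (-0.08 with quantiles, -0.27 with the covariate). With the covariate they also turned for Slc25a5 1423772_x_at (-0.38), Slc25a5 1436874_x_at (-0.86), Slc25a4 (-0.06), Slc25a46 1448970_at (-0.40), Timm8b (-0.12) and Timm44 (-0.57). Timm44 ranged from -0.33 to 0.49 when 1 array was left out, and was -0.03 without High replicate 4. The cause was not tested. No paired analysis was possible because the replicate numbers only follow accession order.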
